A study of Mus musculus with 24 samples.

Results

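The cell cycle and DNA replication genes described here are 49 named genes whose products copy DNA, drive the passage between cell cycle phases or divide the chromosomes. They fall into 17 replication genes, 7 transition regulators and 25 mitosis genes, and 48 of the 49 had an array feature annotated to their symbol alone, among 20728 named genes in all. The exception is Ccnb1, which was not analysed here. Where a gene had several features, the one with the highest mean was taken.

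C57BL/6 mice aged 9 to 12 weeks gave the samples, and total RNA of their whole lungs was hybridised to 24 one-colour arrays. The mice had received bleomycin, which breaks DNA and damages lung tissue, or PBS, the saline vehicle. In each arm they were also given GP DNM3OS-1 (gapmer 1), GP DNM3OS-3 (gapmer 3) or GP Ctrl (control gapmer). Gapmers are antisense oligonucleotides through which a cell cleaves the RNA they pair with, here the long noncoding RNA Dnm3os. The groups are bleomycin with gapmer 1, with gapmer 3 and with the control gapmer, 5 arrays each, and PBS with gapmer 1, with gapmer 3 and with the control gapmer, 3 arrays each. All 6 groups carry a gapmer, so no group shows bleomycin or PBS alone. The sources used here give no dose, route or time after bleomycin. The labels number the samples of a group without saying that each is a separate mouse, so the spread behind the p-values may be technical. Values are log2 intensities, and a difference of 1 on this scale is a doubling of the signal. Each comparison was tested with limma over all named genes, and a gene was called at an adjusted p under 0.05.

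A dividing cell first licenses its replication origins, when Cdc6 and Cdt1 load the ring-shaped MCM helicase onto DNA, and then copies its genome with a helicase completed by Cdc45 and the GINS complex, while ribonucleotide reductase, thymidylate synthase and thymidine kinase supply the nucleotides. E2F factors turn on most of these genes at the entry into S phase. The genes of G2 and mitosis (cyclins A and B with Cdk1, the Aurora and Polo kinases, kinesins, centromere proteins and the chromosomal passenger complex) are switched on later by the MuvB complex with B-Myb (Mybl2) and by Foxm1. Most cells of the healthy adult lung are at rest, and after injury epithelial, endothelial, stromal and immune cells can all enter the cycle. In RNA from a whole organ, more cycling cells and more RNA per cycling cell cannot be told apart.

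Promoter elements are known for both the early and the late genes, so a few promoters are shown. E2F binds GC-rich sites next to a run of T, while MuvB recognises the CHR element, and the late promoters often carry CCAAT boxes, bound by NF-Y. The 250 bases before each annotated start (RefSeq, GRCm38.p6) were searched on both strands for the E2F letters TTTCCCGC, TTTGGCGC, TTTCGCGC and TTTGCCGC, for the CHR letters TTTGAA and TTCGAA, and for CCAAT. Of the 49 members, 41 had such a window. Some genes have several windows, and a gene was counted if any of its windows held the letters. E2F letters stood in 4 of 15 replication genes (26.7%), 0 of 5 regulators and 1 of 21 mitosis genes (4.76%), against 2.77% of the 16404 tested genes with a window. CHR letters stood in 10 of 21 mitosis genes (47.6%), 4 of 15 replication genes (26.7%) and 1 of 5 regulators (20.0%), against 17.5% of all. CCAAT stood in 18 of 21 mitosis genes (85.7%), 10 of 15 replication genes (66.7%) and 1 of 5 regulators (20.0%), against 39.2% of all. Both CHR and CCAAT were present in 9 of 21 mitosis genes (42.9%), 3 of 15 replication genes (20.0%) and 1 of 5 regulators (20.0%), against 6.51% of all. These shares are a description without a test, a match is not a bound site, and no match says only that these letters are missing from the window. The 160 bases directly before the start are printed for 6 genes, picked after the matches were seen because each shows 1 of these arrangements, with every match in capitals. Mcm5 (chr8:75109349-75109508, plus strand) and Mcm6 (chr1:128359706-128359865, minus strand), subunits of the replicative helicase, carry E2F and CCAAT letters and no CHR letters here, and in both an E2F match on 1 strand overlaps a match on the other.
Mcm5: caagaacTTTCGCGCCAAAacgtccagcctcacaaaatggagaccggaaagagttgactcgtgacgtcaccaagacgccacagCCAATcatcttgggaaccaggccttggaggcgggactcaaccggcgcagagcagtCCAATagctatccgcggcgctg
Mcm6: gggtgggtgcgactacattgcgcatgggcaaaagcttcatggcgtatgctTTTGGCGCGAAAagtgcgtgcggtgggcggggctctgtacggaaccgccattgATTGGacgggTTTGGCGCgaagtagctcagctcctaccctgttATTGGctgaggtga
Cdk1 (chr10:69352913-69353072, minus strand), the kinase of mitotic entry, carries E2F, CHR and CCAAT letters together.
Cdk1: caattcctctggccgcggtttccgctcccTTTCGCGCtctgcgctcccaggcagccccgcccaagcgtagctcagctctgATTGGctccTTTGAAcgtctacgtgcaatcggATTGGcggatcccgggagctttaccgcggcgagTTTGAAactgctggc
Top2a (chr11:99024190-99024349, minus strand), which untangles DNA before chromosomes part, Cdc20 (chr4:118437344-118437503, minus strand), an activator of the anaphase-promoting complex, and Ube2c (chr2:164769769-164769928, plus strand), the ubiquitin-conjugating enzyme of that complex, carry CHR and CCAAT letters and no E2F letters. The letters TTCGAA read the same on both strands.
Top2a: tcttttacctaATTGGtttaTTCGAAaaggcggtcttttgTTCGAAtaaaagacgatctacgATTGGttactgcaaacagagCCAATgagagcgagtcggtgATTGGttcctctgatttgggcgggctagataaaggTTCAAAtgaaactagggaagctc
Cdc20: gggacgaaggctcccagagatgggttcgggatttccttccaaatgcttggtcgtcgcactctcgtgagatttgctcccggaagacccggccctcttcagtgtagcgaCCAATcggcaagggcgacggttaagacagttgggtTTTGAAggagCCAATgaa
Ube2c: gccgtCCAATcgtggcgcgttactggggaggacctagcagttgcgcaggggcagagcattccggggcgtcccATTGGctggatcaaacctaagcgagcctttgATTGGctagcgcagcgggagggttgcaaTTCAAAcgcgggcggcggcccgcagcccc

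Dnm3os, the target of the gapmers, was checked first. Its level was 6.08, 5.99, 6.12, 6.48 and 6.24 with gapmer 1 in bleomycin, 6.29, 6.26, 6.26, 6.42 and 6.78 with gapmer 3 and 6.84, 7.03, 6.64, 7.05 and 6.93 with the control gapmer. The differences from the control were -0.72 ± 0.11 (SE; adjusted p = 0.000186) and -0.50 ± 0.11 (SE; adjusted p = 0.00293), and among the gapmer 3 arrays replicate 5 alone reached the control range. In PBS mice the differences were -0.45 ± 0.14 (SE; adjusted p = 0.0882) and -0.25 ± 0.14 (SE; adjusted p = 0.577), and neither passed the test. The lung markers Sftpc and Scgb1a1 lay between 17.87 and 18.25 on every array, and 18.25 is the highest value of all features. They belong to a list of 8 lung genes, which did not all stay level. Of the 8, 3 were called lower in bleomycin control than in PBS control lungs (19.3% of all genes). Against bleomycin control, 4 were called higher with gapmer 1 and 3 with gapmer 3 (5.47% and 5.63% of all genes). RNA integrity numbers averaged between 9.03 and 9.68 per group. Bleomycin control replicate 3 stood apart and carried the thymus genes Rag1, at 10.22 against at most 6.04 on the other arrays, and Dntt, at 11.56 against at most 7.44. Counts without it stand beside the comparisons in bleomycin lungs. Features are numbered along lines of 164 on the array, and 5 arrays had a dim patch near its centre: bleomycin control replicate 5, bleomycin gapmer 1 replicate 3, PBS gapmer 3 replicate 2, and PBS control replicates 2 and 3. There the lowest block median, over blocks of 16 lines by 17 columns, lay between -0.86 and -0.46 on the log2 scale, relative to the mean of each feature over all arrays. On the next array, bleomycin gapmer 1 replicate 2, it was -0.36. This layout was inferred from the values after they were seen.

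Almost the whole set was higher after bleomycin. Of the 48 measured members, 43 were called higher in bleomycin control than in PBS control lungs and 0 lower, where 14.5% of all tested genes were called higher and 19.3% lower. The rise was called for 16 of 17 replication genes with a median difference of 0.93, 5 of 7 regulators with 1.39, and 22 of 24 mitosis genes with 1.94, while the median over all genes was -0.02. For 39 members every bleomycin control array lay above every PBS control array, as it did for 15.1% of all genes, and for 0 members every array lay below (18.2% of all genes). Without bleomycin control replicate 3, 42 members were called. Of the 43 calls, 40 held when each of the 24 arrays was left out in turn, and the exceptions were Cdc45, E2f1 and Mcm4. The mitosis median stood above the replication median, and the difference between the classes was not tested.

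The same classes were compared array by array, as the mean over a class of the difference from the PBS control mean. The mitosis mean was 1.66, 1.80, 1.75, 1.77 and 1.42 on the bleomycin control arrays, a mean of 1.68 ± 0.15 (SD, n = 5), against 0.03, -0.03 and 0.01 on the PBS control arrays. The replication mean was 0.98, 1.09, 1.07, 1.05 and 0.68 on the bleomycin control arrays, a mean of 0.97 ± 0.17 (SD, n = 5), against 0.00, -0.06 and 0.06 on the PBS control arrays. For the regulators it was 0.95, 1.01, 0.95, 1.01 and 0.75, a mean of 0.93 ± 0.11 (SD, n = 5), against -0.01, -0.07 and 0.08. In all 3 classes the lowest bleomycin control array was replicate 5, and it still lay above all PBS control arrays.

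**Figure D1:**
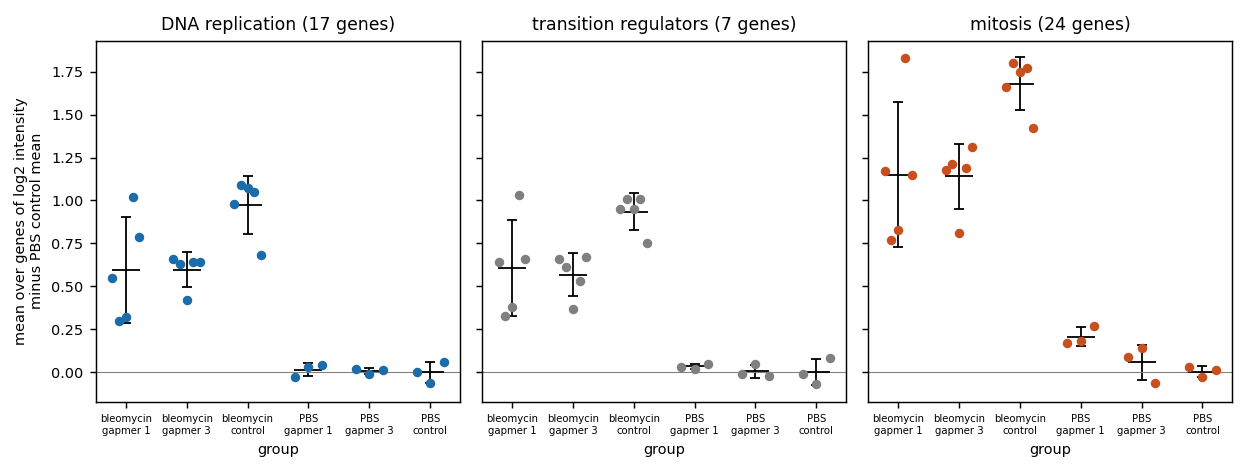
Mean over the genes of a class of the log2 intensity minus the PBS control mean (vertical axis) in each group (horizontal axis). Points are arrays, bars are the group mean and SD (n = 5 for bleomycin, n = 3 for PBS). Bleomycin gapmer 1 replicate 4, at 1.83 in the mitosis panel, lies above the 5 bleomycin control arrays, which range over 1.42 to 1.80.

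Among the replication genes a pair of nucleotide enzymes, Rrm2 and Tk1, rose most. Rrm2, the small subunit of ribonucleotide reductase, was at 11.45, 11.65, 11.68, 11.50 and 11.15 in bleomycin control lungs, against 9.55, 9.40 and 9.81 in PBS control lungs. The groups do not overlap, and Rrm2 rose by 1.90 ± 0.20 (SE; adjusted p = 3.45e-07), 3.74-fold, the largest rise of its class. Tk1, the thymidine kinase of S phase, stood at 10.81, 10.95, 10.81, 10.90 and 10.71, against 8.80, 9.05 and 9.00, a rise of 1.89 ± 0.21 (SE; adjusted p = 5.31e-07). Rrm1, the large reductase subunit, rose by 1.10 ± 0.18 (SE; adjusted p = 5.1e-05). Thymidylate synthase (Tyms), also of the nucleotide supply, was at 6.94, 6.88, 7.03, 6.89 and 6.97 in bleomycin control lungs, against 6.59, 6.94 and 6.86 in PBS control lungs. These ranges overlap, and the difference of 0.14 ± 0.09 (SE; adjusted p = 0.26) did not pass the test.

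All 7 measured MCM genes rose. Mcm5 had 10.46, 10.70, 10.59, 10.70 and 10.58 in bleomycin control lungs, against 9.27, 9.38 and 9.11 in PBS control lungs, a rise of 1.36 ± 0.15 (SE; adjusted p = 5.21e-07). Mcm2 had 9.36, 9.51, 9.62, 9.57 and 9.40, against 8.55, 8.69 and 8.46, and rose by 0.93 ± 0.10 (SE; adjusted p = 4.32e-07). The groups of both genes are apart. The other subunits of the hexamer rose by 0.95 (Mcm3), 0.62 (Mcm4), 0.89 (Mcm6) and 1.08 (Mcm7), and Mcm10, which helps to start the helicase, by 1.12. Of the loaders, Cdt1 rose by 0.86 ± 0.15 (SE; adjusted p = 8.8e-05) and Cdc6 by 0.56 ± 0.11 (SE; adjusted p = 0.000399). Of the helicase partners, Gins2 rose by 1.56 ± 0.35 (SE; adjusted p = 0.00128) and Cdc45 by 0.30 ± 0.09 (SE; adjusted p = 0.0178). Gins2 was at 7.42 on bleomycin control replicate 5, where its feature lies in the dim patch. With block medians taken off every array, Gins2 rose by 1.45 (adjusted p = 9.78e-06). The call for Cdc45 was lost with only the compared groups in the fit and without bleomycin control replicate 4 or PBS control replicate 1 or 3, and that for Mcm4 without PBS control replicate 2. Pcna, the sliding clamp of the polymerases, was bright in every sample, at 13.09, 13.26, 13.29, 13.24 and 13.18 in bleomycin control lungs, against 12.81, 12.59 and 12.93 in PBS control lungs. Its rise of 0.43 ± 0.10 (SE; adjusted p = 0.00113) was one of the smallest called, with groups that do not overlap. Fen1, the flap nuclease that trims Okazaki fragments, rose by 0.84 ± 0.13 (SE; adjusted p = 3.34e-05).

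Of the regulators, Foxm1, the transcription factor of the mitosis genes, rose most. Foxm1 was at 8.71, 8.87, 8.56, 8.89 and 8.51 in bleomycin control lungs, against a mean of 7.02 and at most 7.04 in the 3 PBS control lungs, a rise of 1.69 ± 0.20 (SE; adjusted p = 1.19e-06). Ccne1, the cyclin that brings cells into S phase, was at 9.61, 9.85, 9.72, 9.88 and 9.60, against 8.11, 8.19 and 8.35, a rise of 1.52 ± 0.15 (SE; adjusted p = 9.79e-08). The groups of both are separate. The dimmer second features of Foxm1 and Ccne1, at mean levels of 6.06 and 6.24, rose by 0.46 and 0.65. Mybl2, the B-Myb partner of MuvB, rose by 1.39 ± 0.14 (SE; adjusted p = 1.2e-07), and its second, dimmer feature by 0.53. E2f8, a repressor among the E2F factors, rose by 1.40 ± 0.17 (SE; adjusted p = 1.76e-06). E2f1, an activator, was at 9.92, 9.86, 9.80, 9.89 and 8.90, against 9.18, 8.79 and 9.26. Replicate 5 of the bleomycin control group lay within the PBS range, and the rise of 0.60 ± 0.22 (SE; adjusted p = 0.0374) was not called without any 1 of bleomycin control replicates 1 to 4 or PBS control replicates 1 and 2. The E2f1 feature lies in the dim patch of replicate 5, in a block with a median of -0.57 relative to the rest of the group. With block medians taken off every array, E2f1 rose by 0.47 (adjusted p = 0.00218). Ccne2 and Chek1, the second cyclin E and the replication checkpoint kinase, were dim in all 6 groups (mean under 6.11, the 25th percentile of gene means) and differed by -0.08 and 0.02, neither called. No level was read from features this dim.

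The mitosis genes made up most of the largest rises. Ccna2, the cyclin of S phase and G2, was at 10.80, 11.21, 10.91, 11.11 and 10.51 in bleomycin control lungs, against 8.55, 8.56 and 8.25 in PBS control lungs. No array of the first group reached the second, and the rise of 2.46 ± 0.24 (SE; adjusted p = 1.22e-07), 5.49-fold, was the largest of all members. Birc5 (survivin, a subunit of the chromosomal passenger complex) had 12.52, 12.60, 12.50, 12.47 and 11.60, against 10.07, 9.66 and 10.14, a rise of 2.38 ± 0.28 (SE; adjusted p = 1.25e-06). Top2a, shown above by its promoter, had 9.40, 9.55, 9.55, 9.68 and 9.21, against 7.29, 7.34 and 7.13, a rise of 2.22 ± 0.20 (SE; adjusted p = 3.33e-08). Mki67, the coat protein of mitotic chromosomes used as a proliferation marker, had 11.97, 12.02, 12.14, 12.02 and 11.74, against 9.84, 9.89 and 9.94, a rise of 2.09 ± 0.20 (SE; adjusted p = 8.76e-08), and its second feature rose by 2.26. Cdk1 was at 8.41, 8.98, 8.97, 8.73 and 8.52, against 6.66, 6.83 and 7.20, a rise of 1.82 ± 0.24 (SE; adjusted p = 3.88e-06). All of these groups are apart. The other Cdk1 features, dim at mean levels of 6.04 and 5.67, differed by 0.29 and -0.05, the latter not called.

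The other called mitosis genes rose by 1.00 to 2.12. Kinases rose by 2.07 (Plk1, the Polo kinase) and 2.03 (Aurka, of the spindle poles), and Tpx2, an activator of Aurka, by 1.99. A second Tpx2 feature, dim at a mean level of 6.05, rose by 0.49. The degradation machinery rose by 2.01 (Cdc20) and 1.92 (Ube2c), and the second measured mitotic cyclin, Ccnb2, by 1.93. Cdca8 (borealin), a partner of Birc5, rose by 2.12, and Cdca3, which helps to degrade the mitotic inhibitor Wee1, by 2.01. The spindle genes ranged over 1.33 for Kif11 (the motor that pushes the poles apart), 1.47 for the microtubule binder Nusap1, 1.95 for Kif20a, a kinesin of cytokinesis, and 1.99 for Prc1, a microtubule bundler of the midzone, while the microtubule depolymerase Kif2c, whose PBS control mean lay under the dim limit, rose by a measured 1.08. Centromere genes rose by 1.35 (Cenpa, the centromeric histone) and 1.77 (Cenpe, a motor). The spindle checkpoint genes Bub1 and Bub1b rose by 1.00 and 1.27, and the 10 features for Bub1 gave rises between 0.78 and 1.00. Aurkb and Cenpf, dim in all groups, differed by 0.05 ± 0.11 (SE; adjusted p = 0.793) and 0.06 ± 0.07 (SE; adjusted p = 0.554), neither called.

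**Figure D2:**
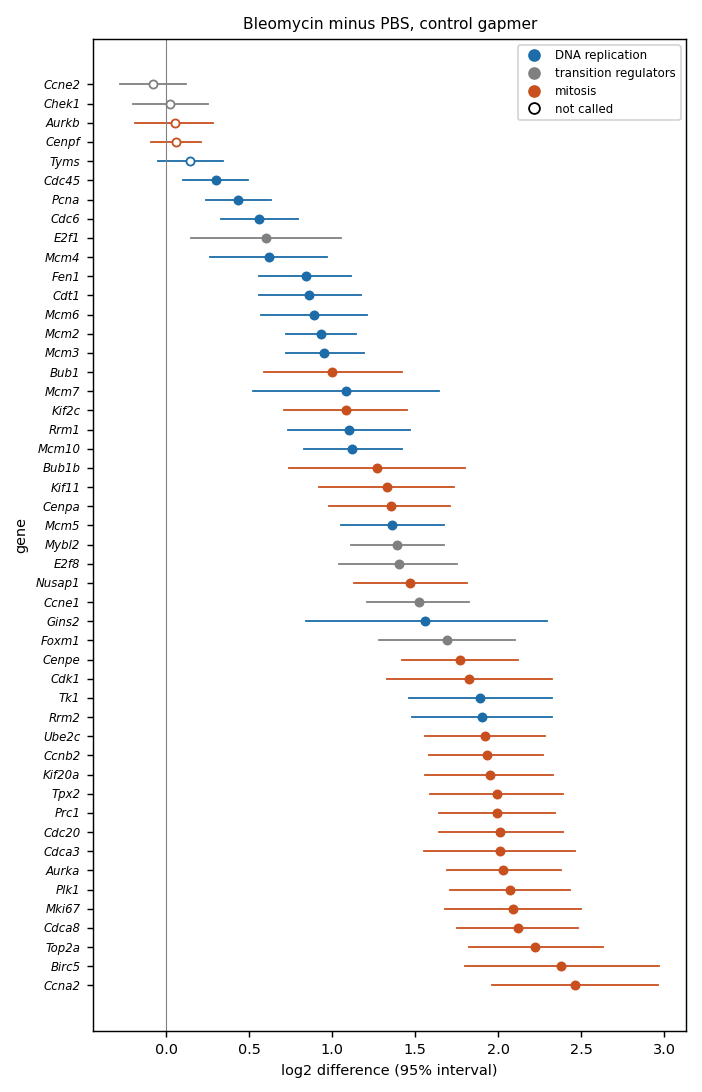
Log2 difference of bleomycin minus PBS lungs, both with the control gapmer (horizontal axis), for 48 genes (vertical axis), with 95% intervals and colours for the class. Open points were not called. The 14 largest differences, from Ube2c to Ccna2, are all of mitosis genes.

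Genes of the same processes outside the 49 were taken from wider lists. Of 46 further replication genes 30 rose and 0 fell, with a median of 0.38. Uhrf1, which couples DNA methylation to replication, rose by 1.91, the polymerase subunit Pole by 1.57, and the histone chaperones Chaf1b and Asf1b by 1.48 and 1.48. Of 60 further mitosis genes 52 rose and 1 fell, with a median of 0.96, led by the kinetochore gene Spc25 (2.38), the kinesin Kif22 (2.04) and the cohesin regulator Cdca5 (sororin, 1.89). Of 26 regulators of G1, 11 rose and 3 fell. Myc rose by 1.20 and cyclin D1 (Ccnd1) by 0.87. The CDK inhibitors moved both ways, with 4 of 8 higher and 1 lower. Cdkn1a (p21, the p53 target that arrests the cycle) rose by 2.08, Cdkn2a by 1.57 and Cdkn3, a phosphatase of CDKs, by 1.68, while Cdkn1b (p27) fell by 0.53.

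Cell type markers moved in the same comparison. The mean level of 11 markers of monocyte-derived macrophages was 11.96 to 12.25 in bleomycin control lungs, against 9.89 to 10.10 in PBS control lungs, and 11 of 11 rose. For T cells it was 9.38 to 10.17, against 8.63 to 8.93, with 9 of 10 higher, and for B cells 9.70 to 10.10, against 9.41 to 9.55, with 5 of 8 higher. Basal airway markers were at 10.28 to 11.09, against 8.05 to 9.02, with 6 of 8 higher. Endothelial markers were at 12.00 to 12.20, against 12.66 to 12.92, with 10 of 10 lower. Skeletal muscle genes were at 9.34 to 9.51, against 10.95 to 12.20. Which of these cells held the cycling RNA was not tested, and the part of cell composition in the rise was not tested.

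Part of the set was lower with each Dnm3os gapmer in bleomycin lungs. With gapmer 1, 22 of 48 members were called lower than in bleomycin control lungs and 0 higher, where 5.08% of all genes were called lower and 5.47% higher. With gapmer 3, 27 of 48 were lower and 0 higher, where 7.52% of all genes were lower and 5.63% higher. The 2 comparisons share the bleomycin control arrays. The fit also shares 1 estimate of the spread over all 6 groups. The median SD of a member was 0.43 in bleomycin gapmer 1 and 0.09 to 0.19 in the other groups. With only the compared groups in the fit, 9 members were called lower with gapmer 1. The counts were 5 of 17 replication genes, 3 of 7 regulators and 14 of 24 mitosis genes with gapmer 1, and 7 of 17, 4 of 7 and 16 of 24 with gapmer 3. With the dim patch allowed for, more replication genes were called with both gapmers, as given below. Median differences were -0.38, -0.47 and -0.56 with gapmer 1, and -0.33, -0.52 and -0.56 with gapmer 3, beside 0.02 and 0.01 over all genes. Without bleomycin control replicate 3, the array with thymus genes, 15 members were called with gapmer 1 and 20 with gapmer 3. The calls lost are those of Ccna2, Cdc20, E2f8, Kif20a, Mki67, Tk1 and Ube2c with gapmer 1, and of Ccna2, Cenpa, E2f8, Foxm1, Mki67, Nusap1 and Prc1 with gapmer 3. With each of the 24 arrays left out in turn, 12 of the 22 calls with gapmer 1 and 18 of the 27 with gapmer 3 held every time.

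The separation of the arrays differed more than the counts. With gapmer 3, 27 members had every gapmer array below every bleomycin control array and 0 had the opposite (8.03% and 4.83% of all genes did). With gapmer 1 there were 0 of either kind (3.41% and 2.87% of all genes), and in the class means bleomycin gapmer 1 replicate 4 lay at the level of the control arrays. The mitosis class mean was 1.17, 0.77, 0.83, 1.83 and 1.15 on the gapmer 1 arrays (1.15 ± 0.42, SD, n = 5), 1.18, 1.21, 0.81, 1.19 and 1.31 on the gapmer 3 arrays (1.14 ± 0.19, SD, n = 5), and 1.42 to 1.80 on the control arrays. The replication mean was 0.55, 0.30, 0.32, 1.02 and 0.79 with gapmer 1 and 0.66, 0.63, 0.42, 0.64 and 0.64 with gapmer 3, against 0.68 to 1.09 with the control gapmer. Leaving out replicate 4 of the gapmer 1 group brought the called members to 37. Without replicate 2 or replicate 3 of that group, or replicate 2 of the bleomycin control group, they were 12, 13 and 13.

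**Figure D3:**
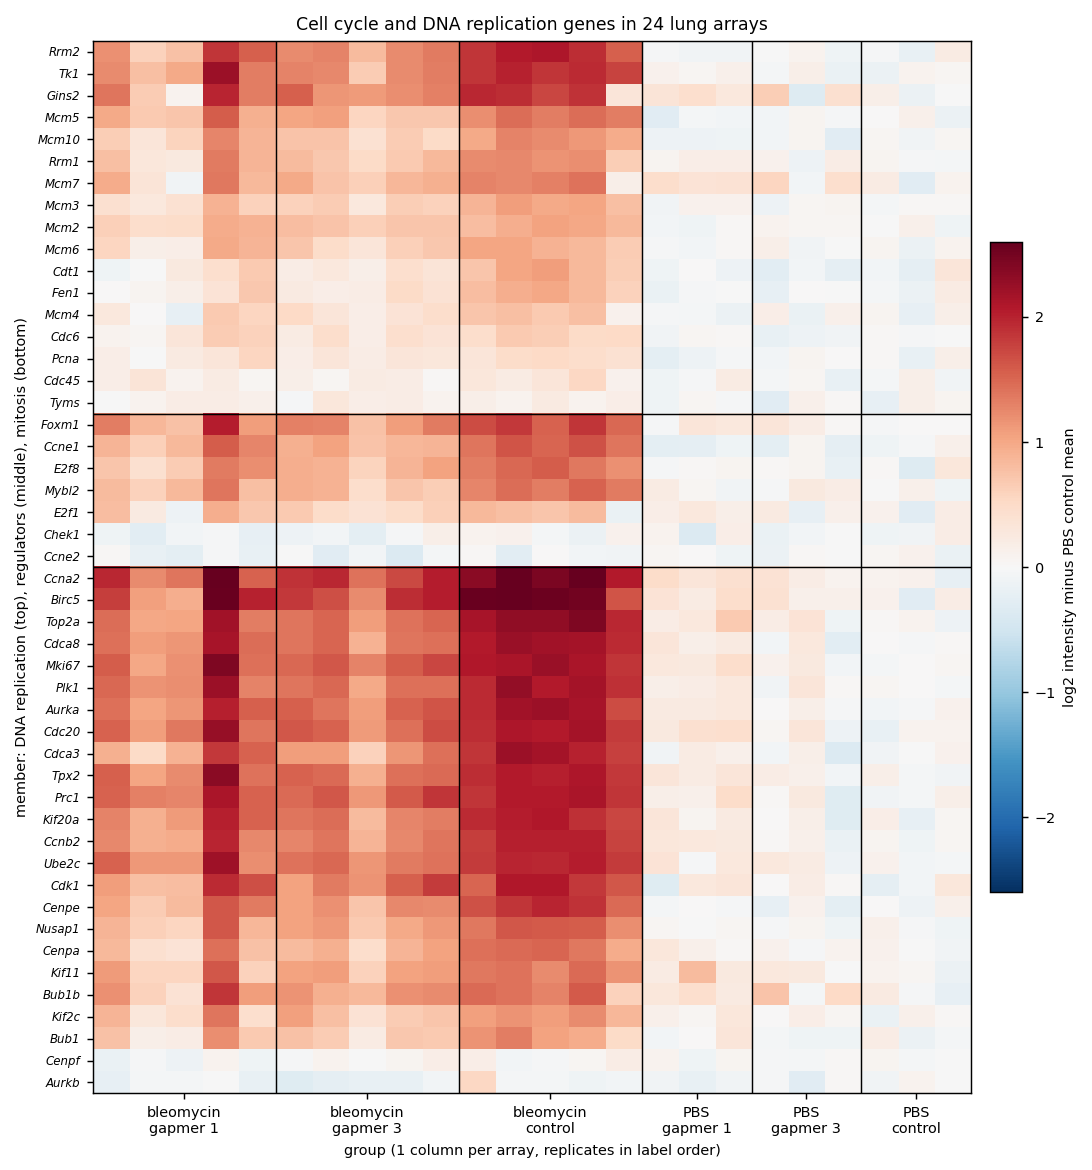
Log2 intensity minus the PBS control mean (colour) of 48 genes (rows, by class and size of the bleomycin difference) on 24 arrays (columns, by group). In the bleomycin gapmer 1 block the column of replicate 4 is the darkest, and in the bleomycin control block that of replicate 5 is pale or blue at Gins2, Mcm7 and E2f1.

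Among the mitosis genes Cdca3 and Top2a differed most with both gapmers. Cdca3 was at 9.25, 8.83, 9.23, 10.17 and 9.86 with gapmer 1 and 9.43, 9.42, 8.93, 9.48 and 9.76 with gapmer 3, against 10.19, 10.56, 10.50, 10.34 and 10.11 with the control gapmer. It fell by 0.87 ± 0.19 (SE; adjusted p = 0.005) with gapmer 1 and by 0.93 ± 0.19 (SE; adjusted p = 0.00204) with gapmer 3. Top2a was at 8.70, 8.25, 8.28, 9.44 and 8.58 with gapmer 1 and 8.64, 8.76, 8.33, 8.66 and 8.76 with gapmer 3, against 9.40, 9.55, 9.55, 9.68 and 9.21. It fell by 0.83 ± 0.17 (SE; adjusted p = 0.00317) and 0.85 ± 0.17 (SE; adjusted p = 0.00181), and all gapmer arrays other than replicate 4 of gapmer 1 lay below the controls.

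Ccna2 was at 10.42, 9.68, 9.84, 11.24 and 9.98 with gapmer 1 and 10.33, 10.41, 9.86, 10.17 and 10.49 with gapmer 3, against 10.80, 11.21, 10.91, 11.11 and 10.51. The falls of 0.68 ± 0.21 (SE; adjusted p = 0.0402) and 0.66 ± 0.21 (SE; adjusted p = 0.0395) passed the test by a small margin, and both lost the call without bleomycin control replicate 3. Mki67 was at 11.47, 10.89, 11.08, 12.32 and 11.32 with gapmer 1 and 11.38, 11.50, 11.17, 11.46 and 11.63 with gapmer 3, against 11.97, 12.02, 12.14, 12.02 and 11.74. It fell by 0.56 ± 0.17 (SE; adjusted p = 0.0385) and 0.55 ± 0.17 (SE; adjusted p = 0.0381), and lost both calls in the same way. Cdk1, shown above by its promoter, was at 7.99, 7.68, 7.69, 8.84 and 8.58 with gapmer 1 and 7.94, 8.24, 8.07, 8.46 and 8.71 with gapmer 3, against 8.41, 8.98, 8.97, 8.73 and 8.52. The groups overlap, and the differences of -0.57 ± 0.21 (SE; adjusted p = 0.0841) and -0.44 ± 0.21 (SE; adjusted p = 0.186) were not called. Birc5 was at 11.76, 11.02, 10.90, 12.52 and 11.95 with gapmer 1 and 11.80, 11.64, 11.19, 11.87 and 11.99 with gapmer 3, against 12.52, 12.60, 12.50, 12.47 and 11.60, and was not called either, at -0.71 ± 0.24 (SE; adjusted p = 0.0667) and -0.64 ± 0.24 (SE; adjusted p = 0.09). Its brightest feature, used here, lies in the dim patch of the arrays, at line 255 and column 80. Chosen after its values were seen, a second Birc5 feature at line 56 and column 62, outside the patch, fell by 0.68 (adjusted p = 0.00563 over all features) with gapmer 1 and by 0.76 (adjusted p = 0.00157) with gapmer 3. With gapmer 1 the second features of the called genes Ccne1, Cdca8 and Ube2c were not called (-0.31, -0.59 and -0.54). Those of Mcm3, Mki67 and Mybl2 were (-0.41, -0.71 and -0.44), as was that of Foxm1 (-0.27), whose brighter feature was not. With gapmer 3 the second features of Ccne1 and Cdca8 did not pass (-0.21 and -0.45). Bub1 features at -0.39, -0.40 and -0.34 did, unlike its brightest.

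The remaining mitosis genes called with both gapmers were Ccnb2, Cdc20, Cdca8, Aurka, Plk1, Kif20a, Cenpa, Cenpe, Nusap1 and Ube2c, with differences between -0.68 and -0.48 for gapmer 1 and between -0.80 and -0.48 for gapmer 3. The calls for Cdc20, Kif20a and Ube2c with gapmer 1 and for Cenpa and Nusap1 with gapmer 3 were lost without bleomycin control replicate 3. The call for Cdc20 with gapmer 1 held in 4 of the 24 fits that leave out 1 array, and that for Ube2c in 14. Tpx2 and Prc1 were called with gapmer 3 alone, at -0.61 and -0.45, beside -0.47 and -0.44 with gapmer 1, and the call for Prc1 held in 10 of the 24 fits and not without bleomycin control replicate 3. Kif11, Kif2c, Bub1 and Bub1b were called with neither, between -0.45 and -0.25 with gapmer 1 and between -0.40 and -0.20 with gapmer 3. Aurkb and Cenpf, both dim, were not called.

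**Figure D4:**
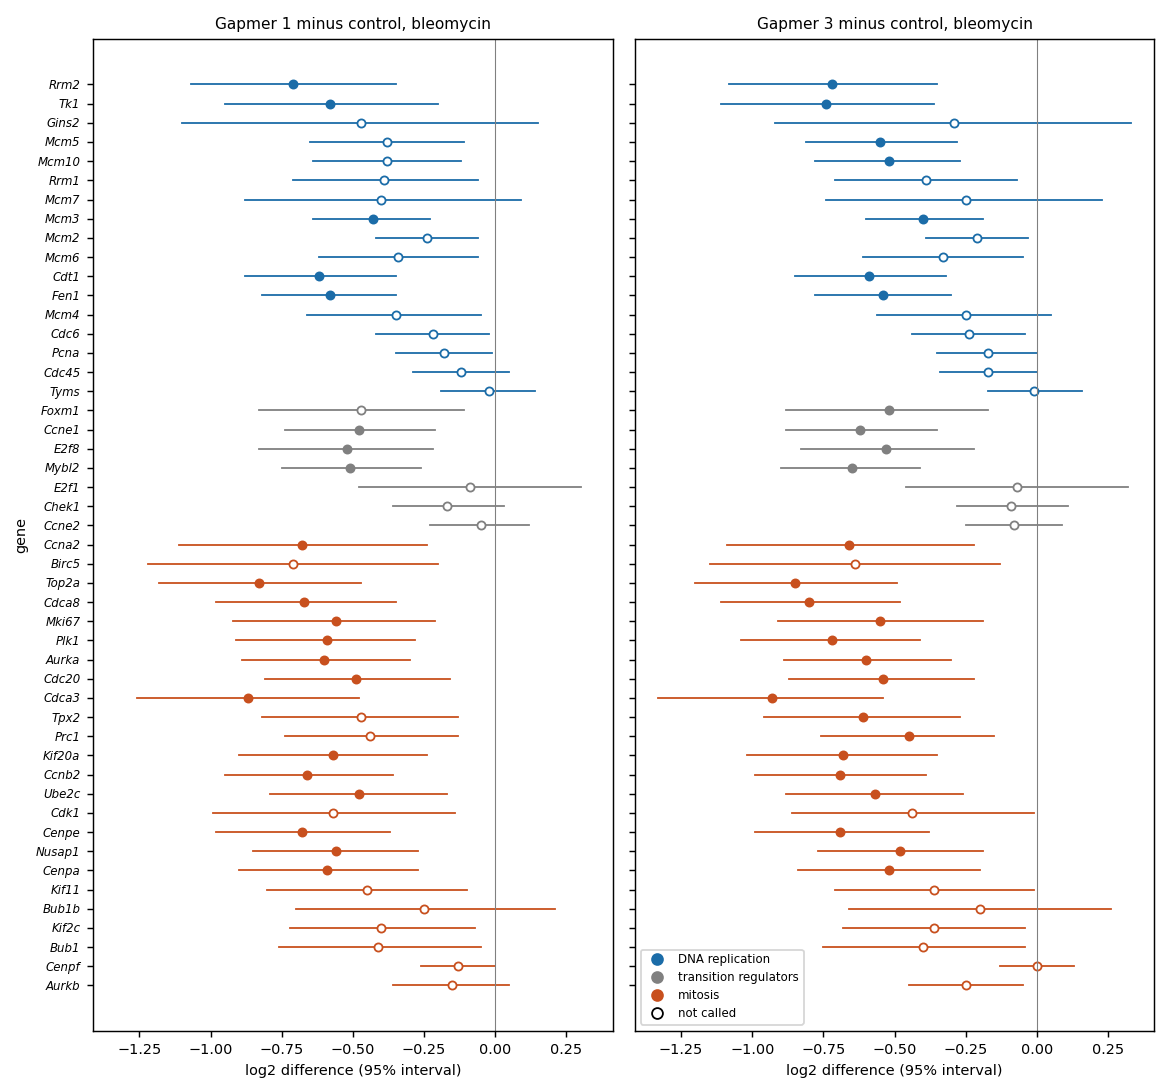
Log2 difference from bleomycin control lungs (horizontal axis, 95% intervals) with gapmer 1 (left) and gapmer 3 (right) for 48 genes (vertical axis, same order as the map of all arrays). Filled points were called. The largest falls in both panels are those of Cdca3 and Top2a, and Tyms lies near 0.

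In the replication class 5 genes fell with gapmer 1 and 7 with gapmer 3. Rrm2 was at 10.78, 10.19, 10.35, 11.44 and 11.14 with gapmer 1 and 10.82, 10.88, 10.41, 10.81 and 10.94 with gapmer 3, against 11.45, 11.65, 11.68, 11.50 and 11.15 with the control gapmer. It fell by 0.71 ± 0.17 (SE; adjusted p = 0.0112) and 0.72 ± 0.17 (SE; adjusted p = 0.0082), the largest fall of the class with gapmer 1. Tk1 was at 10.18, 9.74, 9.93, 11.17 and 10.29 with gapmer 1 and 10.25, 10.20, 9.61, 10.17 and 10.28 with gapmer 3, against 10.81, 10.95, 10.81, 10.90 and 10.71. It fell by 0.58 ± 0.18 (SE; adjusted p = 0.0432) and 0.74 ± 0.18 (SE; adjusted p = 0.0083). The call with gapmer 1 held in 11 of the 24 fits that leave out 1 array, not in the one without bleomycin control replicate 3, and was lost with only the compared groups in the fit or when RNA integrity entered it as a covariate. The loader Cdt1 fell by 0.62 ± 0.13 (SE; adjusted p = 0.0034) and 0.59 ± 0.13 (SE; adjusted p = 0.00353), and Fen1 by 0.58 ± 0.11 (SE; adjusted p = 0.00218) and 0.54 ± 0.11 (SE; adjusted p = 0.0027). Mcm3 was the helicase subunit called with both, at -0.43 and -0.40. Mcm5 was at 10.23, 9.94, 9.97, 10.82 and 10.17 with gapmer 1 and 10.28, 10.31, 9.81, 9.95 and 9.95 with gapmer 3, against 10.46, 10.70, 10.59, 10.70 and 10.58. It fell by 0.55 ± 0.13 (SE; adjusted p = 0.00665) with gapmer 3, and the difference of -0.38 ± 0.13 (SE; adjusted p = 0.0622) with gapmer 1 was not called. Mcm10 showed the same split, at -0.52 and -0.38. Mcm2, Pcna and Tyms were not called, with differences of -0.24, -0.18 and -0.02 with gapmer 1 and -0.21, -0.17 and -0.01 with gapmer 3. Nor were Mcm4, Mcm6, Mcm7, Rrm1, Gins2, Cdc6 and Cdc45, at -0.47 to -0.12 with gapmer 1 and -0.39 to -0.17 with gapmer 3.

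Mybl2 was the regulator with the smallest adjusted p. It was at 9.02, 8.81, 9.05, 9.59 and 8.98 with gapmer 1 and 9.15, 9.11, 8.67, 8.92 and 8.85 with gapmer 3, against 9.47, 9.65, 9.54, 9.75 and 9.55, and fell by 0.51 ± 0.12 (SE; adjusted p = 0.00772) and 0.65 ± 0.12 (SE; adjusted p = 0.000704). Ccne1 was at 9.11, 8.84, 9.06, 9.79 and 9.48 with gapmer 1 and 9.15, 9.27, 8.95, 9.09 and 9.11 with gapmer 3, against 9.61, 9.85, 9.72, 9.88 and 9.60, with falls of 0.48 ± 0.13 (SE; adjusted p = 0.0173) and 0.62 ± 0.13 (SE; adjusted p = 0.00219). E2f8 fell by 0.52 and 0.53, and both calls were lost without bleomycin control replicate 3. Foxm1 was at 8.35, 7.88, 7.79, 9.06 and 8.11 with gapmer 1 and 8.33, 8.32, 7.78, 8.12 and 8.38 with gapmer 3, against 8.71, 8.87, 8.56, 8.89 and 8.51. It fell by 0.52 ± 0.17 (SE; adjusted p = 0.0474) with gapmer 3, a call that held in 5 of the 24 fits that leave out 1 array and not without bleomycin control replicate 3, and its difference of -0.47 ± 0.17 (SE; adjusted p = 0.0849) with gapmer 1 was not called. E2f1 was at 9.87, 9.32, 8.95, 10.02 and 9.78 with gapmer 1 and 9.75, 9.56, 9.45, 9.56 and 9.69 with gapmer 3, against 9.92, 9.86, 9.80, 9.89 and 8.90, with groups that overlap widely and differences of -0.09 (95% interval -0.48 to 0.30) and -0.07 (-0.46 to 0.32).

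**Figure D5:**
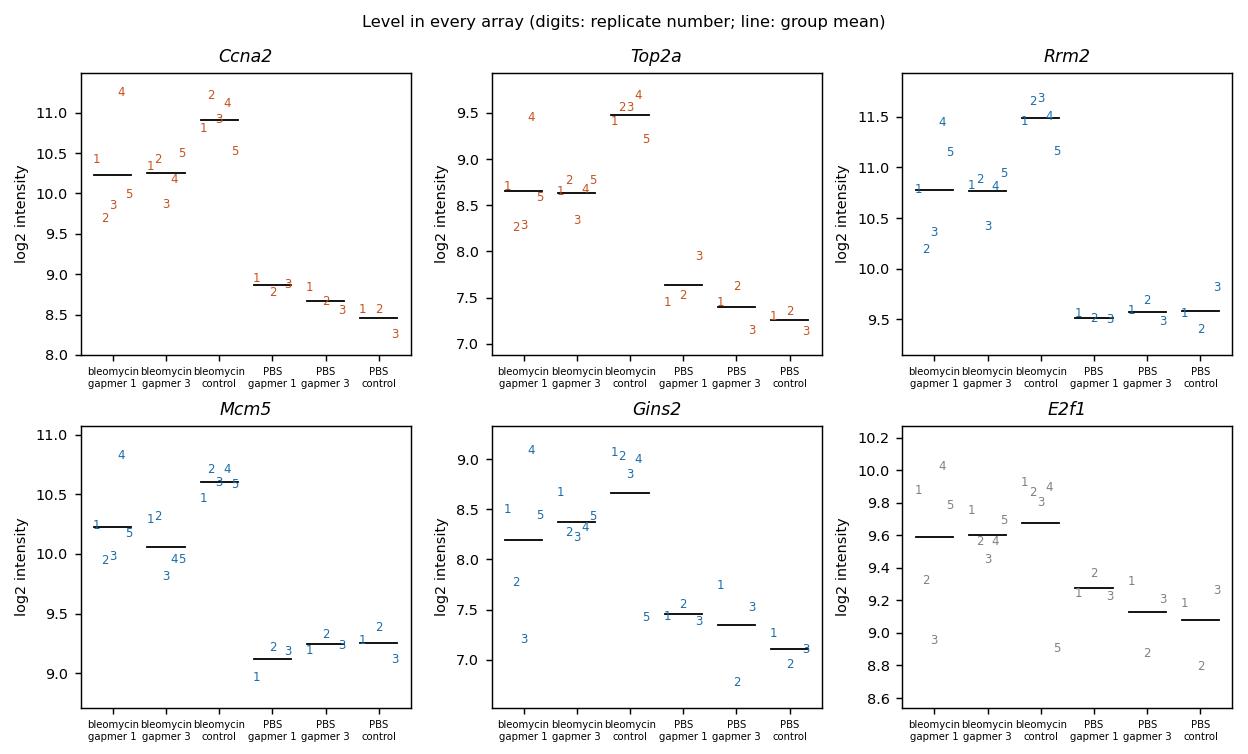
Log2 intensity (vertical axis) of 6 genes on all 24 arrays by group (horizontal axis). Digits are replicate numbers and lines group means. Replicate 4 of bleomycin gapmer 1 is the highest of its group in each panel, and replicate 5 of bleomycin control is far below its group for Gins2 and E2f1.

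The wider lists fell in part as well. Of the 46 further replication genes 9 fell with gapmer 1 and 17 with gapmer 3, with medians of -0.19 and -0.25, Uhrf1 by 0.67 and 0.69. Of the 60 further mitosis genes 19 and 25 fell, 1 rose with gapmer 3, and the medians were -0.34 and -0.37. The kinetochore gene Cenph fell by 0.67 and 0.73. Of the 26 G1 regulators 3 fell with gapmer 1, and 2 rose and 2 fell with gapmer 3. Myc fell by 0.76 with gapmer 1 and 0.83 with gapmer 3. Of the CDK inhibitors 3 of 8 fell with each gapmer, namely Cdkn2a (-0.60 and -0.71), Cdkn3 (-0.52 and -0.63) and Cdkn2d (-0.28 and -0.30). Cdkn1a was not called, at -0.11 and -0.18. Without bleomycin control replicate 3 the further replication genes that fell numbered 6 with gapmer 1 and 16 with gapmer 3, the further mitosis genes 11 and 15, the G1 regulators 1 and 2, and the CDK inhibitors 1 and 2, while 1 G1 regulator rose with gapmer 1.

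Cell type markers moved with these comparisons. The T cell mean was 8.78 to 9.04 with gapmer 1 and 8.60 to 8.95 with gapmer 3, against 9.38 to 10.17 with the control gapmer, and 8 of 10 markers fell with each gapmer. For B cells it was 9.10 to 9.30 and 8.71 to 9.41, against 9.70 to 10.10, with 8 of 8 lower. Monocyte-derived macrophage markers were at 11.38 to 11.92 and 11.27 to 11.87, against 11.96 to 12.25, with 4 of 11 lower with gapmer 1, and 3 lower and 1 higher with gapmer 3. Basal airway markers were at 9.67 to 9.93 and 8.68 to 9.78, against 10.28 to 11.09, with 2 of 8 lower with gapmer 1 and 4 of 8 with gapmer 3. Alveolar type 2 markers were at 14.62 to 15.04 and 14.89 to 14.99, against 14.33 to 14.65, with 7 of 10 higher with each gapmer. Endothelial markers were at 12.15 to 12.47 and 12.39 to 12.59, against 12.00 to 12.20, with 2 and 5 of 10 higher. Without bleomycin control replicate 3, whose T cell mean of 10.17 was the highest, that mean was at most 9.84 in the control group, and the T and B cell counts stayed at 8 of 10 and 8 of 8 with each gapmer. On bleomycin gapmer 1 replicate 4, which held the cycle genes at the control level, the T cell mean was 8.94 and the macrophage mean 11.92. The part of these cells in the falls was not tested. Skeletal muscle genes ranged over 10.08 to 10.70 with gapmer 1, 7.58 to 12.18 with gapmer 3 and 9.34 to 9.51 with the control gapmer.

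The members varied together within groups. In bleomycin gapmer 1 the median SD of a member was 0.43, where that of all genes above the dim limit was 0.16, and replicate 4 was the highest of the group for 43 of 48 members. In bleomycin gapmer 3, with median SDs of 0.19 and 0.11, replicate 3 was the lowest for 40 of 48. In bleomycin control, with 0.16 and 0.12, replicate 5 was the lowest for 36 of 48. Position on the array moved with the last of these. On that array 10 members lie in blocks whose other bright features had a median between -0.73 and -0.14 relative to the rest of the group, and those members differed from the rest of the group by a median of -0.73. They are Bub1, Rrm1, Cenpa, Ccne2, Gins2, Mcm7, Bub1b, E2f1, Birc5 and Mcm4. The other 38 members lie in blocks with medians between -0.07 and 0.15, and differed by a median of -0.22, with 35 of 38 lower. For replicate 4 of gapmer 1 the same 38 members had block medians between -0.12 and 0.16 and a median difference of 0.74. For replicate 3 of gapmer 3 the block medians of all members lay between -0.08 and 0.05. With block medians taken off every array, 43 members were called higher with bleomycin, 26 lower with gapmer 1 and 30 lower with gapmer 3. With gapmer 1 this added the replication genes Mcm4, Mcm6, Mcm7, Mcm10 and Rrm1 and the mitosis gene Birc5. It took away the mitosis genes Cdc20 and Ube2c. With gapmer 3 it added the replication genes Mcm6 and Rrm1 and the mitosis genes Birc5 and Bub1, and took away Prc1.

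Without bleomycin the gapmers left no called member. In PBS lungs 0 of 48 were called with gapmer 1, where 0.444% of all genes were called higher and 0.666% lower, and 0 with gapmer 3, where 0.00965% and 0.0241% were. At an unadjusted p under 0.05 there were also 0 in both. The class medians were -0.03, 0.03 and 0.22 with gapmer 1, and -0.01, -0.03 and 0.06 with gapmer 3, for replication, regulators and mitosis. With gapmer 1, 14 of the 48 members had every gapmer array above every control array, as 8.62% of all genes did. These were 12 of 24 mitosis genes and the replication genes Mcm7 and Gins2. Wholly below lay 3 members, as 13.7% of all genes did, namely the dim Aurkb, Mcm10 and Ccne1. With gapmer 3, 1 of the 48 members (Foxm1) lay wholly above (4.23% of all genes) and 1 (Cdc6) wholly below (8.34%). The widest differences with gapmer 1 were those of Kif11, at 0.42 ± 0.22 (SE; adjusted p = 0.335), Ccna2 (0.41), Ccne1 (-0.20) and Pcna (-0.14), and with gapmer 3 those of Bub1b, at 0.40 ± 0.28 (SE; adjusted p = 0.672), Mcm7 (0.30), Cdt1 (-0.19) and Ccne1 (-0.14). Ccna2 was at 8.94, 8.77 and 8.87 with gapmer 1 and 8.83, 8.65 and 8.54 with gapmer 3, against 8.55, 8.56 and 8.25 with the control gapmer. Outside the 49 genes, Cdkn1a rose by 0.93 ± 0.18 (SE; adjusted p = 0.0223) with gapmer 1. Monocyte-derived macrophage markers were at 10.37 to 10.68 in PBS gapmer 1 lungs, against 9.89 to 10.10 in PBS control lungs, with 2 of 11 called higher and 7 of 11 wholly above. Basal airway markers were at 9.78 to 10.10, against 8.05 to 9.02, with 0 of 8 called and 5 of 8 wholly above. The part of these cells in the mitosis values with gapmer 1 was not tested.

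Members were also called higher with bleomycin under each Dnm3os gapmer. With gapmer 1, 32 of 48 members were higher in bleomycin than in PBS lungs and 0 lower (6.35% and 3.13% of all genes), 10 of 17 replication, 4 of 7 regulator and 18 of 24 mitosis genes, with medians of 0.48, 0.83 and 1.14. With gapmer 3, 35 were higher and 0 lower (7.02% and 6.85% of all genes), 10, 4 and 21 by class, with medians of 0.55, 0.60 and 1.23. Groups did not overlap for 34 members with gapmer 1, all higher (9.24% of all genes higher, 5.64% lower), and for 42 with gapmer 3, all higher (10.3% and 12.0%). The largest rises were those of Ccna2, at 1.37 ± 0.24 (SE; adjusted p = 0.000814), and Birc5 (1.33) with gapmer 1, and Ccna2, at 1.58 ± 0.24 (SE; adjusted p = 0.000105), and Prc1 (1.55) with gapmer 3. Without bleomycin control replicate 3, which is in neither compared group, 30 and 35 members were called. With only the compared groups in the fit, 16 members were called higher with gapmer 1.

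Whether a gapmer changed the size of the bleomycin response was tested as an interaction. With gapmer 1 the response was smaller for 6 members, all of mitosis, and larger for 0, where 2.74% of all genes were called lower and 4.97% higher. They are Top2a, at -1.20 ± 0.28 (SE; adjusted p = 0.0134), Ccnb2 (-0.93), Cdca8 (-0.90), Aurka (-0.85), Cdc20 (-0.84) and Plk1 (-0.80). Part of each value lies in PBS lungs, where these genes were higher with gapmer 1 than with the control gapmer. The PBS means were 7.63 against 7.26 (Top2a), 10.01 against 9.73 (Ccnb2) and 9.06 against 8.82 (Cdca8). They were 8.2 against 7.95 (Aurka), 10.08 against 9.73 (Cdc20) and 8.97 against 8.76 (Plk1), with no difference called. With gapmer 3 the response was smaller for 1 member, Mybl2, at -0.79 ± 0.19 (SE; adjusted p = 0.0275), and larger for 0, where 1.64% of all genes were called lower and 1.45% higher. With only the compared groups in the fit, the counts were 3 with gapmer 1 and 13 with gapmer 3. The reported fit shares its spread over all groups, bleomycin gapmer 1 among them, so its counts do not rank the 2 gapmers. The count with gapmer 1 was 26 without bleomycin gapmer 1 replicate 4, 16 without bleomycin control replicate 5, and 2 or 3 without any of 9 others, which are bleomycin control replicates 2 and 4, bleomycin gapmer 1 replicates 2 and 3, PBS control replicates 1 and 3 and the 3 PBS gapmer 1 replicates. It was 4 without bleomycin control replicate 3, where Cdc20 and Plk1 lost the call, and the calls for Top2a and Ccnb2 alone held whichever array was left out. The count with gapmer 3 was 12 without bleomycin gapmer 1 replicate 4, 2 without replicate 2 or 3 of that group or bleomycin control replicate 5, and 0 without bleomycin control replicate 2 or 4, PBS control replicate 1 or 3 or PBS gapmer 3 replicate 2. Without bleomycin control replicate 3 it was Mybl2 alone, and without PBS gapmer 3 replicate 3 it was Top2a in its place. For the mitosis class the median interaction was -0.77 with gapmer 1 and -0.63 with gapmer 3, beside 0.03 and 0.02 over all genes.

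The 2 gapmers were also set against each other in bleomycin lungs. By limma 0 of the 48 members were called, 0 of them had an unadjusted p under 0.05, and 0 of the 20728 genes were called. Differences of gapmer 3 minus gapmer 1 lay between -0.16 and 0.18, with Mcm5 and Tk1 the lowest and Gins2 and Mcm7 the highest. For Ccna2 the difference was 0.02 ± 0.21 (SE; adjusted p = 1.0), with a 95% interval of -0.41 to 0.45, and for Mcm5 it was -0.16 ± 0.13 (SE; adjusted p = 0.992), with -0.43 to 0.10. These intervals leave room for a difference of either sign.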

How the data were processed

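The authors deposited 1 table of log2 intensities for 24 one-colour Agilent arrays, normalised so that array medians lie between 6.485 and 6.495. The submitters' processing notes name limma. Its settings, the background correction and detection flags are not given here, so no feature could be called absent. Of 62976 features, 31465 had 1 gene symbol in the platform annotation and were used, giving 20728 genes with the feature of the highest mean each. A feature was called dim under 6.11, the 25th percentile of gene means. Group means of the 6 groups were fitted with limma 3.58.1 in R 4.3.3 (lmFit, eBayes), with 18 residual degrees of freedom, and p-values were adjusted by Benjamini-Hochberg over all genes. The procedure was tested on simulated data. The number of arrays limits the precision. No slide or batch is given in the labels. Same-numbered PBS gapmer 1 and PBS control samples had correlations of deviations of 0.103, 0.189 and 0.121. Differently numbered samples were not correlated, so these values cannot show whether the numbers pair the samples. The reported fit takes no pairs, and 0 members were called in this comparison with and without a replicate block.

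The members, the wider lists and the tests were chosen with earlier results of these data known. Named in full were a set list of core genes, the members with the largest and smallest bleomycin difference per class, the 2 largest rises and falls in each other comparison, and up to 4 called genes of each wider list. Alternatives changed the normalisation, the filter on dim genes, the choice of feature, the variance model, array weights, the groups in the fit, the RNA integrity number, a replicate block and single arrays. The largest SD of any percentile between the deposited arrays was 0.00834. Renewed quantile normalisation or median centring could therefore change the values little, and these settings are a weak check. The position alternative, which takes off block medians of bright features outside the set, was added after the values were seen, as were the threshold of -0.1 that puts 10 members in the dim patch, and the promoters shown.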

Additional observations from a re-analysis of the deposited data

Results flagged for a closer look

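Within groups of 5 arrays, 21 values stood far from the other arrays of their group (gap to the nearest array over the group's range above Dixon's 95% critical value). Chance flags about 1 in 20 groups, and 153 were examined. Bleomycin gapmer 3 replicate 3 was the lowest for Mcm3 (11.13), Rrm2 (10.41), Tk1 (9.61), Top2a (8.33), Cdca8 (9.72), Bub1 (7.12), Plk1 (9.74), Kif11 (6.95) and Tpx2 (8.15). It was also the lowest in the class means of replication (0.42) and mitosis (0.81). Bleomycin control replicate 5 was the lowest for Mcm4 (11.58), Mcm7 (11.04), Gins2 (7.42), Rrm1 (10.34), E2f1 (8.90), Birc5 (11.60) and Cenpa (9.43), 7 genes that all lie in the dim patch of that array. It was also the lowest in the class means of replication (0.68) and regulators (0.75). Bleomycin control replicate 1 was the highest for Aurkb, at 6.22, a dim feature.

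The bleomycin response differed between a Dnm3os gapmer and the control gapmer by the interaction test for 7 results, which share the control arrays. With gapmer 1 these were Top2a (-1.20), Ccnb2 (-0.93), Cdca8 (-0.90), Aurka (-0.85), Cdc20 (-0.84) and Plk1 (-0.80). With gapmer 3 it was Mybl2 (-0.79). Over all genes 2.74% were called lower with gapmer 1 and 1.64% with gapmer 3. Of the calls, 2 of 6 with gapmer 1 and 0 of 1 with gapmer 3 held whichever array was left out. With only the compared groups in the fit, 3 members were called with gapmer 1 and 13 with gapmer 3.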

How the results depend on the processing

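No called result changed direction under the alternatives, while 341 of 17240 values of single members did so without a call on either side. Class medians near 0 changed sign in PBS lungs, ranging over -0.05 to 0.02 (replication) and -0.02 to 0.07 (regulators) with gapmer 1 and over -0.06 to 0.01, -0.09 to 0.08 and -0.02 to 0.10 (mitosis) with gapmer 3, and for gapmer 3 minus gapmer 1, over -0.05 to 0.15 (replication) and -0.14 to 0.11 (regulators). Of the results for single genes 16661 kept their side of the threshold, 240 gained and 339 lost a call. With gapmer 1 in bleomycin lungs, 22 members were called lower in the reported fit, 40 with array weights and 9 with only the compared groups in the fit, and array weights put the replication median at -0.54. Members called higher with bleomycin under gapmer 1 numbered 32, and 16 with only the compared groups. The smaller response with gapmer 1, called for 6 members, was called for 10 with dim genes left out, 30 with array weights, 3 with only the compared groups, 11 with the RNA integrity number as a covariate, and 11 with the position trend removed. With gapmer 3 the call for 1 member became 2 with quantile normalisation, median centring or dim genes left out, 7 with array weights, 13 with only the compared groups and 0 with the RNA integrity number. Class medians moved to 0.96 (regulators, bleomycin with control gapmer) and 0.60 (regulators, bleomycin under gapmer 1) with a gene's features averaged, and to 0.93 (mitosis, bleomycin under gapmer 1) with array weights. They moved to 0.90 (regulators, bleomycin under gapmer 3) and -0.55 (regulators, interaction with gapmer 1) without dim genes, and to -0.49 (replication) and -0.54 (regulators) for that interaction with array weights. The cause of these moves was not tested.

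Leaving out 1 array at a time gave 41 to 43 members higher with bleomycin, 12 to 37 lower with gapmer 1, 18 to 30 lower with gapmer 3, 2 to 26 in the interaction with gapmer 1 and 0 to 12 in that with gapmer 3. The regulator median ranged over 1.23 to 1.41 for bleomycin, -0.61 to -0.36 for gapmer 1, -0.48 to -0.22 for the interaction with gapmer 1 and -0.54 to -0.33 for that with gapmer 3, and the replication median over -0.49 to -0.27 for gapmer 3. Groups share replicate numbers, but of 51 pairs of same-numbered samples 23 had a correlation of deviations over 0.1 (range -0.413 to 0.42). This neither shows that the numbers pair the samples, in bleomycin or PBS lungs, nor excludes a shared origin. With the replicate block 43 members were called higher with bleomycin, 26 lower with gapmer 1 and 27 lower with gapmer 3, and the interactions gave 11 and 3.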
